A study of Homo sapiens with 4 samples.

Results

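The lncRNAs described here carry names of the form lnc-ZNF followed by numbers. Such a name marks a long noncoding RNA (lncRNA) gene by a neighbouring zinc finger (ZNF) gene and states nothing of its function. Members were chosen by their measured level: the genes with a name starting in lnc-ZNF and a mean of at least 0.5 FPKM over the 4 libraries, after the isoform rows of each gene were summed. The unit, FPKM, scales a transcript's fragments by its length and by the mapped fragments of its library. By this rule, 171 of the 1103 listed lnc-ZNF genes were members, and 6444 of all 46902 listed lncRNA genes reached the same level. The remaining 932 lnc-ZNF genes lay below it, 378 of them listed at 0 in every library.

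The study compared MDA-MB-231, an established human line of triple-negative breast cancer, with its subline MDA-MB-231-P3, with 2 libraries of each. Per the labels' protocols, the subline came from 3 rounds in which cells were injected into the tail vein of mice, recovered from lung tumours and expanded in culture. No genetic change or drug was named for either line. The subline is a population carried through mouse lung, so its difference from the parent also holds the passage itself. Whether a line's libraries came from separate cultures was not stated, so the p-values measure only the spread between these samples, and that spread may be technical. The labelled cell type could not be checked here, because the table lists lncRNAs and no protein-coding markers.

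ZNF genes encode C2H2 zinc finger proteins, the largest family of human transcription factors. Many of them carry a KRAB domain, which recruits the corepressor TRIM28 and the methyltransferase SETDB1 to lay down repressive H3K9 methylation, often on transposable elements. They sit in tandem clusters, above all on chromosome 19, and copies within a cluster can be very similar. The lncRNAs around them are mostly uncharacterised.

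The rule fixed the neighbour by name but set no condition on its chromosome. Positions below are those of the neighbours, since the members' own coordinates were not used here. The 171 members named 128 neighbouring ZNF genes, of which 126 were found in the hg19 gene annotation, all as protein-coding genes. Of these, 59 lay on chromosome 19, and 75 members were named for them. Another 94 members were named for ZNF genes on other chromosomes. Just 1 of the 171 members, lnc-ZNF30-3, matched a gene record by name: RefSeq lists it as a synonym of LINC02965. On hg19 the gene in its name, ZNF30, lies on chromosome 19 between 35417807 and 35436074 on the plus strand.

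The sequence before the start of LINC02965 is shown because it is the only member matched to a RefSeq record here. The same stretch of ZNF674 and ZNF217, the neighbours of the members with the largest difference upwards and with the largest downwards among those over 5 FPKM, is shown to contrast it with ZNF promoters. Each is the 250 bases before the RefSeq start, 5′ to 3′ on the gene's strand, on GRCh38.p14, with CG dinucleotides in capitals. In this order, the stretches are chr19:34838461-34838710 (plus strand), chrX:46545422-46545671 (minus strand) and chr20:53593840-53594089 (minus strand).
LINC02965: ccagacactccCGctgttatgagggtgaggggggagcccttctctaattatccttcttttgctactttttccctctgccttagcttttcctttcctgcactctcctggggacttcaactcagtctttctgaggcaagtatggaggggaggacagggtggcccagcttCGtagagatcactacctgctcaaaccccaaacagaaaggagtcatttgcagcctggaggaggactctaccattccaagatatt
ZNF674: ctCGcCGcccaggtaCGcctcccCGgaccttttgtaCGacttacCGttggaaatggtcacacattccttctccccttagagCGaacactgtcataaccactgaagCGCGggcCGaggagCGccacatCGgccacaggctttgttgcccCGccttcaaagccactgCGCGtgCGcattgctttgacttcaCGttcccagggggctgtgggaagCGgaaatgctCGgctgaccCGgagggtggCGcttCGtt
ZNF217: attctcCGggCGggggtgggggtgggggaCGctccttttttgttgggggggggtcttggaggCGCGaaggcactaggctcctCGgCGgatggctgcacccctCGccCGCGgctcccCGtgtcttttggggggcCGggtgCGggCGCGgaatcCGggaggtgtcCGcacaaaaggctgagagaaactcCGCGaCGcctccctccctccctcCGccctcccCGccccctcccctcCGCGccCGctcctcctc
The LINC02965 stretch held 2 CG dinucleotides, which read the same on both strands, and 23.6% of all RefSeq promoters of this length held as few. That compares with 22 before ZNF674 and 25 before ZNF217. Over the 108 neighbours with a RefSeq promoter the median was 16.5 (quartiles 12 and 24), and over all RefSeq promoters it was 11 (quartiles 3 and 23). Such matches describe these windows and say nothing of what binds there. The windows before ZNF674 and ZNF217 belong to the coding genes and not to the lncRNAs.

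Most members were low. The median of their mean levels was 1.26 FPKM, against 1.43 FPKM over all 6444 genes. Of the 171, 64 lay under 1 FPKM, 116 under 2 FPKM and 10 at 10 FPKM or more. Just inside the threshold, with no test attached, were lnc-ZNF394-2 at 0.506, lnc-ZNF716-4 at 0.510 and lnc-ZNF582-1 at 0.513 FPKM. Just outside it were lnc-ZNF506-2 at 0.497, lnc-ZNF572-3 at 0.482 and lnc-ZNF333-4 at 0.481 FPKM. Both line means reached 0.5 FPKM for 133 members. Another 28 passed through the subline alone and 10 through the parent alone, so their lines had to differ to some degree.

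A pair of members stood far above the rest. The lncRNA lnc-ZNF213-3, named for a KRAB and SCAN domain gene on chromosome 16, had 196 and 299 FPKM in the parental pair against 198 and 197 FPKM in the subline pair. Its neighbour ZNF213 spans 3179778 to 3192805 on the plus strand (hg19). The lncRNA lnc-ZNF713-3, from chromosome 7, measured 92.5 and 134 FPKM in the parental libraries, then 122 and 139 FPKM in those of the subline. In both cases the lines overlapped, and the widest gap was between the parental libraries. Together these 2 genes took 38.9% and 48.1% of the members' summed FPKM in the parent, beside 38.3% and 40.0% in the subline.

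The next most abundant members, between 17 and 28 FPKM on average, did not share a direction. The lncRNA lnc-ZNF644-1 stood at 32.0 and 29.6 FPKM in MDA-MB-231, with 23.3 and 22.3 FPKM in MDA-MB-231-P3. Its neighbour encodes a partner of the H3K9 methyltransferases G9a and GLP. The subline lay below the parent in both libraries, with a difference of -0.42 on the log2 scale (SE 0.25, adjusted p = 0.470 by limma). Likewise lnc-ZNF169-7, at 24.9 and 26.7 against 20.7 and 14.1 FPKM, and lnc-ZNF8-4, at 25.3 and 17 against 15.3 and 12.6 FPKM, lay below the parent in both subline libraries. In contrast lnc-ZNF460-1 had 17.9 and 14.4 FPKM in the parental pair against 20.3 and 19.9 FPKM in the subline pair, above the parent in both. For lnc-ZNF697-2 (30.4 and 20.1 against 27.6 and 33.0 FPKM) and lnc-ZNF837-1 (18.1 and 24.5 against 18.2 and 17.8 FPKM) the lines overlapped. None of these differences passed the test, and limma adjusted p-values ran from 0.433 to 0.736 for the 8 most abundant members.

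**Figure D1:**
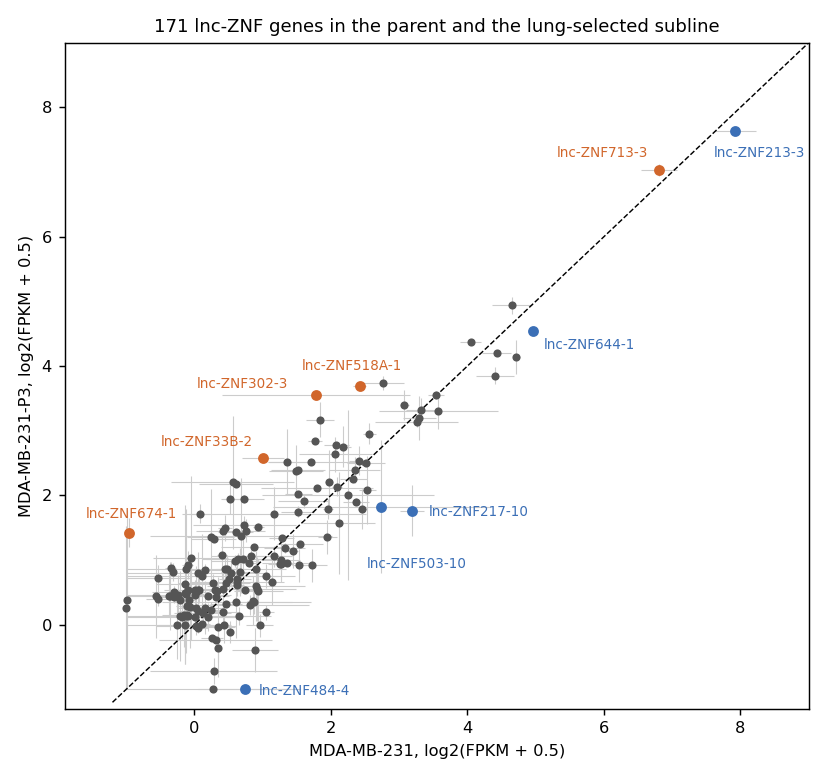
Mean log2(FPKM + 0.5) of each of the 171 lnc-ZNF genes in MDA-MB-231 (x axis) and MDA-MB-231-P3 (y axis); bars span the 2 libraries of a line and the dashed line marks equal levels. Coloured points carry names (orange above the line, blue below), and lnc-ZNF213-3 and lnc-ZNF713-3 stand apart at the upper right.

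The comparison of the lines asked which of these lncRNAs the lung-passaged cells carry at another level than the cells they came from. No member passed the test: limma on log2(FPKM + 0.5), adjusted by the Benjamini-Hochberg method over all 6444 genes, called 0 of 171, against 4 of all genes, or 0.0621%. The smallest adjusted p of a member was 0.219. In all, 22 members, or 12.9%, had an unadjusted p under 0.05, beside 15.2% of all genes. Of these, 17 were higher in the subline, where the share over all genes is 9.5%, and 5 were lower, where it is 5.68%. The members' shares were near or under those of all genes.

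Directions leaned upwards among the members. The log2 difference was above 0 for 110 of 171 members, or 64.3%, against 54.7% of all genes, and its median was 0.24 against 0.09. Both subline libraries lay above both parental ones for 49 members (28.7%, against 28.9% of all genes) and below them for 22 (12.9%, against 21.4%). Thus the share above was that of all genes, and the share below was smaller. With quantile normalization the counts were 42 (24.6%, against 23.9% of all genes) and 32 (18.7%, against 26.6%), the share of members above 0 was 57.3% against 48.8% of all genes, and the median was 0.075 against -0.027. Differences of at least 1 on the log2 scale were positive for 23 members (13.5%, as for 13.5% of all genes) and negative for 5 (2.92%, against 7.53%). Of the 23, 16 had both line means at 0.5 FPKM or more, and the others passed the level of the rule through the subline alone. Of the 5, 4 passed it through the parent alone. Among the 133 members with both line means at 0.5 FPKM or more, 82 were above 0 (61.7%, against 52.6% of the 4937 such genes in all), with 34 wholly above the parent (25.6%, against 24.8%) and 17 wholly below (12.8%, against 20.4%). In that subset, differences of at least 1 were positive for 12% against 8.28% of genes and negative for 0.752% against 5.1%. With 2 libraries against 2, the smallest p an exact permutation test can give is 0.333, so single members were not tested that way.

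Library-wide values also differed between the lines, not all in the same direction. Without the 2 most abundant members, the members' FPKM summed to 454 and 467 in the parent, against 515 and 503 in the subline. Members listed at 0.5 FPKM or more numbered 142 and 122 in the parent and 151 and 148 in the subline. Over all listed genes, those at 1 FPKM or more also numbered more in the subline (4343 and 4223) than in the parent (3916 and 3915). The FPKM of all listed genes summed to 351135 and 372689 in the subline against 460282 and 500086 in the parent. The part of these library differences in the members' median was not tested.

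For most members a gap between single libraries of a line was wider than the difference between the line means. These are unlike measures: single libraries vary more than line means, and the wider gap was taken, so most genes would show this without a line difference. The wider of the gaps between libraries of a line exceeded the line difference for 116 of 171 members, and for 63.3% of all genes. The median gap, on the log2(FPKM + 0.5) scale, was 0.51 between the parental libraries and 0.34 between the subline libraries, beside a median absolute line difference of 0.45. Across members, Pearson's r of these log2 levels was 0.798 within the parent, 0.850 within the subline and 0.779 to 0.820 across the lines. Across all genes it was 0.836, 0.846 and 0.773 to 0.806 in this order. The parental libraries thus correlated less for the members than for all genes. The points of these correlations share libraries and are not independent, so no p is given.

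The lncRNA with the largest difference and the smallest p of all members was lnc-ZNF674-1. Its neighbour ZNF674 is a KRAB zinc finger gene on the X chromosome, between 46357160 and 46404892 on the minus strand (hg19). The lncRNA had 0.0341 FPKM and a value near 0 in the parental pair, beside 2.64 and 1.79 FPKM in the subline pair. The lines did not overlap, and the log2 difference was 2.38 (SE 0.35, limma adjusted p = 0.219). Because the parent was at or near 0, no fold is given, and the gene passed the level of the rule through the subline alone. The antisense lncRNA ZNF674-AS1, also named for ZNF674, measured 3.54 and 4.47 FPKM in the parental libraries. It had 5.21 and 3.76 FPKM in those of the subline, with overlapping lines. A further member named for ZNF674, lnc-ZNF674-9, was listed at 0.923 and 0.434 FPKM against 0.880 and 0.834 FPKM, also overlapping.

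A set of members at several FPKM had tight subline values above both parental ones. The lncRNA lnc-ZNF518A-1 had 4.48 and 5.24 FPKM in the parental pair and 12.4 FPKM in both subline libraries. The means were 4.86 ± 0.537 and 12.4 ± 0.0124 FPKM (SD, n = 2 each), a 2.55-fold higher level and a difference of 1.27 on the log2 scale (SE 0.25, adjusted p = 0.257 by limma). Its neighbour ZNF518A lies on chromosome 10 between 97889472 and 97965044 on the plus strand (hg19). The difference was 1.17 to 1.37 when single libraries were left out, the narrowest such range among the 6 members of largest positive difference and this one. The lncRNA lnc-ZNF33B-2 stood at 1.12 and 2.0 FPKM in MDA-MB-231, with 5.51 and 5.41 FPKM in MDA-MB-231-P3, a difference of 1.57 on the log2 scale (SE 0.32, adjusted p = 0.257 by limma). Its neighbour ZNF33B has a near-identical copy, ZNF33A, across the centromere of chromosome 10, so reads of that region may be split between copies and the value is uncertain. The same holds for lnc-ZNF658-5, whose neighbour on chromosome 9 has duplicated copies: it had 1.73 and 0.544 FPKM in the parental pair and 4.04 FPKM in both subline libraries (difference 1.57 on the log2 scale, SE 0.45, adjusted p = 0.282 by limma).

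Others with non-overlapping lines lay on chromosome 19. The lncRNA lnc-ZNF791-3 had 0.450 and 0.672 FPKM in the parental pair against 3.16 and 2.46 FPKM in the subline pair, 5.01-fold higher on average. Its log2 difference was 1.64 (SE 0.29, limma adjusted p = 0.256). ZNF791 lies between 12721732 and 12744654 on the plus strand (hg19). A neighbour further along the chromosome, ZNF302, names lnc-ZNF302-3, which measured 0.822 and 8.46 FPKM in the parental libraries, then 11.2 and 11.1 FPKM in those of the subline. Here the parental libraries differed from each other far more than the nearer of them did from the subline, and the log2 difference ran from 0.38 without parental library 1 to 3.14 without parental library 2. For lnc-ZNF727-14, from chromosome 7, the lines overlapped, at 2.26 and 0.287 against 8.90 and 1.75 FPKM.

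**Figure D2:**
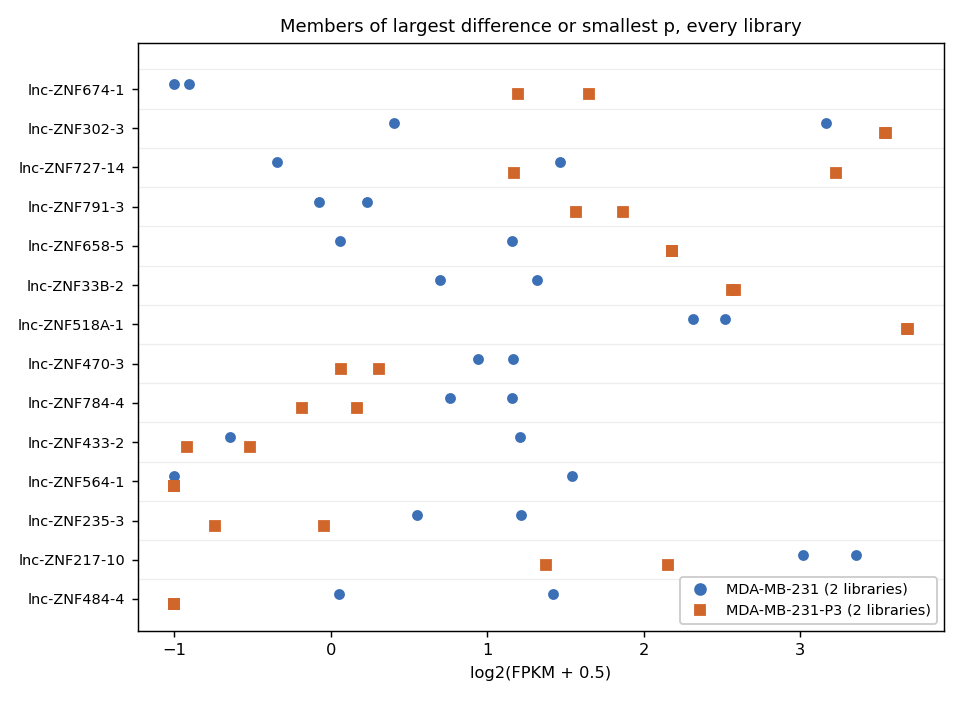
Level of each library, as log2(FPKM + 0.5), for the 14 members with the largest differences or smallest p-values in either direction; circles are MDA-MB-231 libraries and squares MDA-MB-231-P3 libraries, and coinciding symbols overlie each other. For lnc-ZNF518A-1 and lnc-ZNF33B-2 the subline symbols almost coincide above the parental ones, while lnc-ZNF302-3 and lnc-ZNF564-1 have 1 parental library far from the other.

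In the opposite direction, the most abundant lncRNA with a large difference was lnc-ZNF217-10. ZNF217 is a known oncogene of the 20q13 region that is amplified in breast cancers, and lies on chromosome 20 between 52183610 and 52226446 on the minus strand (hg19). The lncRNA stood at 9.77 and 7.60 FPKM in MDA-MB-231, with 3.96 and 2.09 FPKM in MDA-MB-231-P3, without overlap. The means were 8.68 ± 1.54 and 3.03 ± 1.32 FPKM (SD, n = 2 each), a difference of -1.42 on the log2 scale (SE 0.38, adjusted p = 0.268 by limma). The other lncRNAs named for ZNF217 did not share this direction. The lncRNA lnc-ZNF217-5 had 1.32 and 0.767 FPKM in the parental pair against 2.17 and 2.26 FPKM in the subline pair, and lnc-ZNF217-9 at 1.2 FPKM and near 0 against 1.13 and 0.237 FPKM.

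Other members with lower subline levels were near the threshold of the rule. The lncRNA lnc-ZNF484-4 had 0.537 and 2.18 FPKM in the parental pair and was at 0 in both subline libraries, so it passed through the parent alone (difference -1.74 on the log2 scale, SE 0.61, adjusted p = 0.313 by limma). Without overlap, lnc-ZNF470-3 was listed at 1.74 and 1.42 against 0.548 and 0.741 FPKM. Likewise lnc-ZNF784-4 was listed at 1.2 and 1.73 against 0.623 and 0.380 FPKM, and lnc-ZNF235-3, which also passed through the parent alone, at 0.964 and 1.83 against 0.469 and 0.10 FPKM. Their log2 differences lay between -1.27 and -0.86, with limma adjusted p-values of 0.306 to 0.313. In 2 further members, which passed through the parent alone as well, the negative difference rested on a single parental library: lnc-ZNF564-1 had 2.41 FPKM in parental library 2 and was at 0 elsewhere, and lnc-ZNF433-2 had 1.81 FPKM in parental library 1 beside 0.140, 0.200 and 0.0279 FPKM in the others.

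Several members were nearly level. The lncRNA lnc-ZNF717-4 measured 10.2 and 12.1 FPKM in the parental libraries, then 10.7 and 11.7 FPKM in those of the subline, a log2 difference of 0.02 (SE 0.26), and lnc-ZNF131-2 at 8.11 and 11.0 against 10.9 and 8.31 FPKM (0.01, SE 0.31). For lnc-ZNF8-2 the values were 4.20 and 6.41 against 5.04 and 5.29 FPKM (-0.01, SE 0.31), and for lnc-ZNF77-2 they were 3.99 and 3.55 against 3.46 and 4.35 FPKM (0.04, SE 0.27). The standard errors leave room for differences of a fraction of a log2 unit in either direction. ZNF131, a BTB domain transcription factor gene on chromosome 5, also names lnc-ZNF131-1. That lncRNA stood at 2.68 and 3.16 FPKM in MDA-MB-231, with 6.86 and 6.51 FPKM in MDA-MB-231-P3, above the parent in both (difference 1.07 on the log2 scale, SE 0.26, adjusted p = 0.268 by limma).

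Sharing a neighbour did not fix a shared direction. The 171 members included 76 that shared their neighbour with at least one other, around 33 ZNF genes. All members of a neighbour had a positive log2 difference for 15 of the 33 genes and a negative one for 3, and the other 15 held both signs. As 64.3% of all members were positive, neighbours with only positive members also arise where their members are unrelated. Whether the counts differ from that was not tested. Around ZNF33B, 4 members ranged from -0.38 for lnc-ZNF33B-13 to 1.57 for lnc-ZNF33B-2. Around ZNF599, all 3 were positive: lnc-ZNF599-5 was listed at 2.0 and 2.81 against 3.65 and 3.44 FPKM, and lnc-ZNF599-10 at 1.53 and 1.31 against 2.47 and 2.24 FPKM. The sign of lnc-ZNF599-6 rests on subline library 2 alone, at 2.37 FPKM, with values at or near 0 in the rest. Around ZNF705D, whose family of near-identical copies makes the values uncertain, all 3 were negative, from -0.81 for lnc-ZNF705D-4 to -0.10 for lnc-ZNF705D-2.

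**Figure D3:**
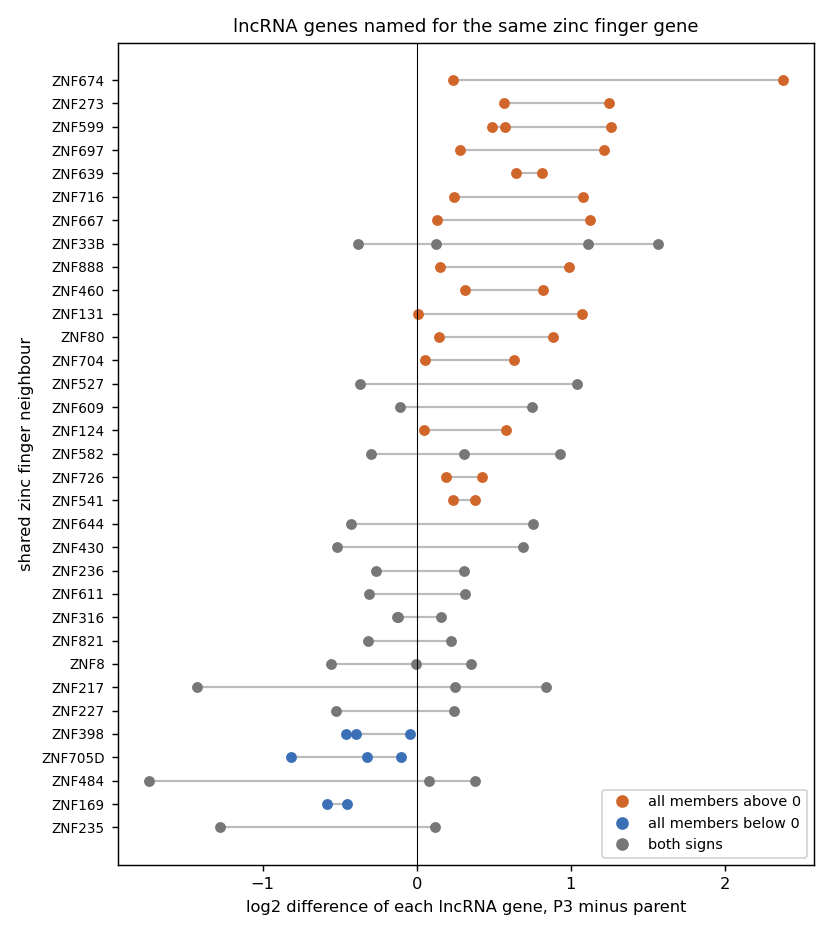
Log2 difference (MDA-MB-231-P3 minus MDA-MB-231) of each lncRNA gene, in rows by the ZNF gene it is named for, for the 33 neighbours with at least 2 members. Orange rows lie wholly above 0 (15 neighbours), blue rows wholly below (3 neighbours), and grey rows hold both signs (15 neighbours).

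By chromosome, the 75 members named for a ZNF gene on chromosome 19 had a median log2 difference of 0.30 and the 94 on other chromosomes one of 0.20, beside 0.09 for all genes. The lines did not overlap, subline above, for 23 of 75 (30.7%) and 26 of 94 (27.7%), and subline below for 7 (9.33%) and 14 (14.9%), where all genes gave 28.9% above and 21.4% below. Both shares above were near that of all genes. Left without parental library 1, the medians were 0.29 and 0.38, so their order rested on that library. Within chromosome 19, the stretch from 30 to 40 Mb (hg19) held 15 members, of which 12 (80.0%) had a positive difference, 8 (53.3%) lay above the parent in both libraries and 0 lay below. The shares of all genes were 54.7% positive, 28.9% above and 21.4% below. Among the 12, lnc-ZNF30-3, lnc-ZNF599-6, lnc-ZNF507-7 and lnc-ZNF573-2 passed the level of the rule through the subline alone, so the rule favoured their sign. The 8 above include lnc-ZNF507-7 (parental mean 0.410, subline mean 0.908 FPKM) and lnc-ZNF573-2 (parental mean 0.451, subline mean 0.801 FPKM). No stretch was counted with both line means at 0.5 FPKM or more. From 0 to 10 Mb, 3 of 3 were positive and 1 lay above, from 10 to 20 Mb 4 of 7 and 2, and from 20 to 30 Mb 6 of 9 and 4. From 40 to 50 Mb, 9 of 11 were positive but just 2 lay above and 1 below, and from 50 to 60 Mb 17 of 30 were positive, 6 above and 4 below. These stretches were drawn after the values were known and carry no test.

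The 30 to 40 Mb stretch holds a cluster of KRAB zinc finger genes with ZNF302, ZNF599, ZNF30 and ZNF792. Of its members, lnc-ZNF792-4 had 1.08 and 0.804 FPKM in the parental pair against 3.98 and 2.78 FPKM in the subline pair, without overlap (difference 1.42 on the log2 scale, SE 0.31, adjusted p = 0.268 by limma). The member matched to RefSeq, lnc-ZNF30-3 (LINC02965), whose upstream stretch is printed above, was listed at 2.92 FPKM in subline library 2 and at or near 0 in the other 3, the highest of them 0.0100 FPKM. A lncRNA of the same stretch, lnc-ZNF599-6, chosen after its values were seen, had the same form: 2.37 FPKM in subline library 2 and at or near 0 in the rest. Both passed the level of the rule through the subline alone, and both differences rest on that library.

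**Figure D4:**
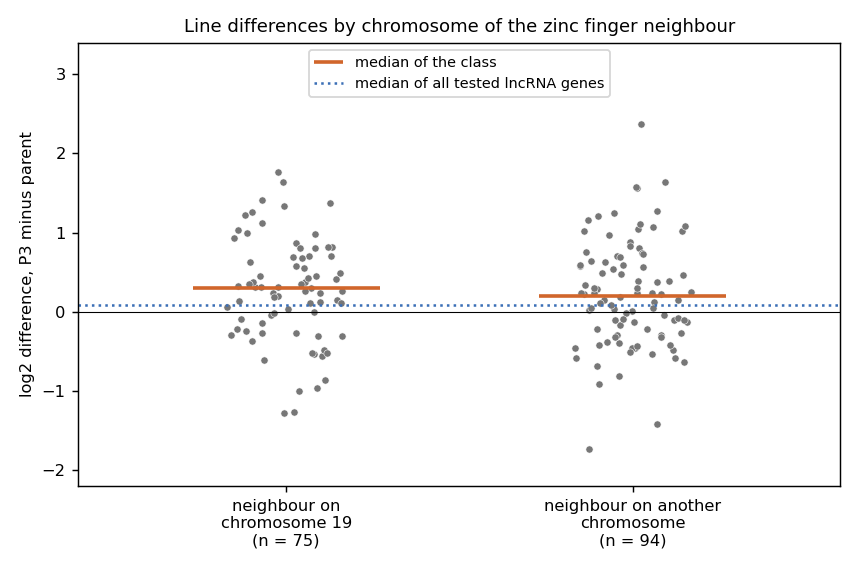
Log2 difference (MDA-MB-231-P3 minus MDA-MB-231) of members whose ZNF neighbour lies on chromosome 19 (75 points) or elsewhere (94 points); orange bars are class medians, 0.30 and 0.20, and the dotted line is the median of all tested lncRNA genes, 0.09. Sideways spread is for display, and the classes overlap over most of their range.

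Another member varied more within a line than between them. The lncRNA lnc-ZNF503-10, named for a developmental corepressor gene on chromosome 10, measured 1.71 and 19.7 FPKM in the parental libraries, then 1.24 and 6.76 FPKM in those of the subline. Library 2 was the higher in both lines, and the log2 difference of -0.91 (SE 1.31) turned to 0.68 without parental library 2 and to 0.12 without subline library 1. An antisense lncRNA named for the same gene, ZNF503-AS2, stood at 2.27 and 3.21 FPKM in MDA-MB-231, with 0.997 and 1.16 FPKM in MDA-MB-231-P3. Its lines did not overlap (difference -1.03 on the log2 scale, SE 0.29, adjusted p = 0.282 by limma).

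The deposited rows are isoforms, and the 171 members had 521 of them. A single isoform was listed for 92 members, and the most, 30, for lnc-ZNF644-1. Of the 219 member isoforms with a mean of at least 0.5 FPKM, limma called 0 (0% of all 8432 isoforms were called), with a smallest adjusted p of 0.185. An unadjusted p under 0.05 was reached by 24, or 11.0%, beside 13.3% of all isoforms. In 27 of the 79 members with at least 2 isoforms above 0, the isoform of highest line mean was not the same in both lines. The share over all genes was not counted. Libraries of the same line could also lead with different isoforms. In lnc-ZNF33B-4, isoform 16 held 75.7% in parental library 1 and 18.2% in parental library 2. The 27 are therefore not read as differences between the lines.

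Within the abundant members, isoform shares differed in how far they moved. In lnc-ZNF713-3, isoform 5 held 99.3% and 99.6% of the sum in the parent and 95.3% in both subline libraries. Its minor isoform lnc-ZNF713-3:3 had the smallest p of all member isoforms, with 0.426 FPKM and a value near 0 in the parental pair beside 5.69 and 6.6 FPKM in the subline pair (difference 3.28 on the log2 scale, SE 0.41, adjusted p = 0.185 by limma). For lnc-ZNF169-7, isoform 7 held 69.4% and 77.8% of the sum in the parent and 53.1% and 29.6% in the subline, while isoform 11 held 17.8% and 7.06% and then 26.4% and 47.6%. Both shares were without overlap between the lines, but as parts of the same sum they are not separate observations. For the levels of isoforms 7 and 11, limma gave adjusted p-values of 0.379 and 0.470.

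In lnc-ZNF644-1 the sum was spread over many isoforms, and none of them held over 41% in any library. Its isoform 20 had 5.82 and 2.23 FPKM in the parental pair against 0.861 and 0.00279 FPKM in the subline pair. The dominant isoform of lnc-ZNF33B-2 was isoform 2 in parental library 1 (87.5%) and isoform 1 in the other 3 libraries (69.4%, 85.5% and 85.8%). Isoform 1 measured 0.140 and 1.38 FPKM in the parental libraries, then 4.71 and 4.64 FPKM in those of the subline, while isoform 2 stayed between 0.610 and 0.982 FPKM in all 4 libraries. So the higher sum of this gene lay in isoform 1. For lnc-ZNF746-3, named for the gene of the parkin substrate PARIS, isoform 7 was at or near 0 in the parental pair beside 1.30 and 1.38 FPKM in the subline pair.

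**Figure D5:**
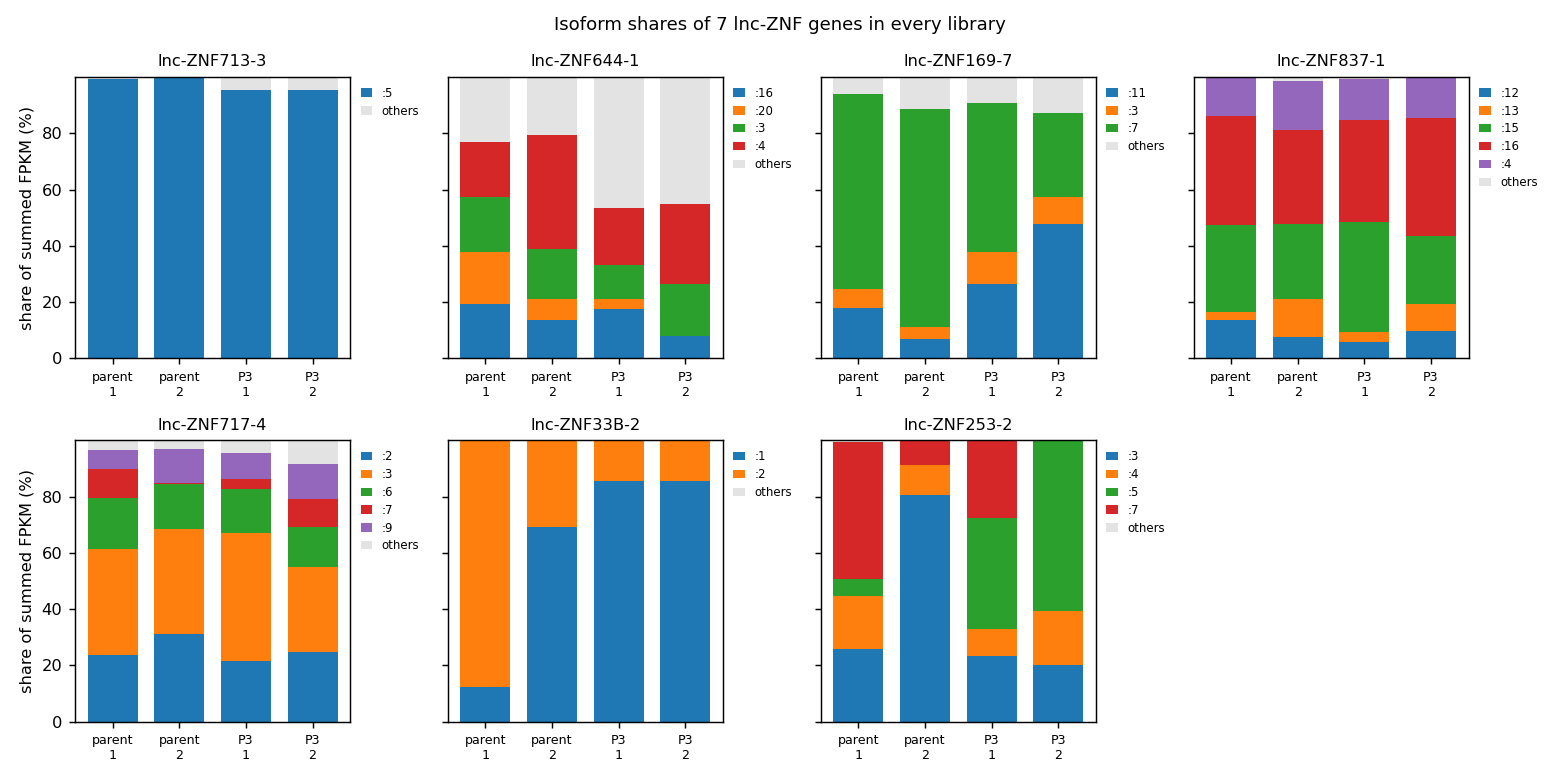
Share of each isoform (number after the colon) in the summed FPKM of its gene, in percent, for 7 members in the 4 libraries; grey holds isoforms under 10% in every library. Isoform 7 of lnc-ZNF169-7 takes a smaller share in both subline libraries, and lnc-ZNF253-2 has a different leading isoform in parental library 1, parental library 2 and the subline libraries.

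Other lncRNAs tied by name to zinc finger genes gave a point of comparison. Antisense, divergent or intronic lncRNAs named for such a gene numbered 21 at the same level, with 9 positive and 12 negative log2 differences and a median of -0.10. Both subline libraries lay below the parent for 6 of them (28.6%, against 21.4% of all genes) and above it for 3 (14.3%, against 28.9%). Here limma called 0, with an unadjusted p under 0.05 for 3 (14.3%, against 15.2% of all genes), all of them lower in the subline. The divergent transcript ZNF236-DT, for example, stood at 27.7 and 29.3 FPKM in MDA-MB-231, with 16.5 and 18.6 FPKM in MDA-MB-231-P3. Of 34 lncRNAs named for other zinc finger families (ZFP, ZSCAN, ZKSCAN, ZBTB, ZIC, ZC3H and ZDHHC genes), 20 were positive, with a median of 0.06. The families differed. Medians and positive counts were 0.19 (5 of 6) for ZSCAN, 0.21 (5 of 7) for ZC3H and 0.17 (6 of 8) for ZDHHC. They were 0.02 (3 of 5) for ZBTB and -0.08 (1 of 5) for ZFP. For ZIC and ZKSCAN the medians were -0.36 and -0.75, from 2 lncRNAs and 1. Among the 34, limma called 0, with an unadjusted p under 0.05 for 4 higher and 1 lower, or 14.7% (all genes 15.2%). By name, 4 of these belonged to ZC3H genes and 1 to a ZDHHC gene. Medians of 0.03 for 125 lncRNAs with names starting in lnc-SLC and of -0.10 for 37 starting in lnc-RPL or lnc-RPS lay below the 0.24 of the lnc-ZNF members. So did the median of 0.12 for all 5299 lncRNAs of this name form outside lnc-ZNF, which include these lists and the 34 of other zinc finger families. These differences between lists were not tested.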

How the data were processed

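RNA of both lines was sequenced as paired-end reads of 150 bases from strand-marked libraries, per the labels' protocols. Alignment to hg19 with HISAT2 and the deposited FPKM are the authors' work: FPKM were given per lncRNA isoform, per the labels' protocols. StringTie is also named, per the submitters' processing notes. Not given in the sources used here are versions, the lncRNA annotation and the strand setting of the counting. FPKM are not counts and extend far below a single read, so depth is unknown, counting intervals are not given, and values near 0 may be failed estimates. The per-sample files held the values of the series table in all 4 libraries.

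Isoforms were summed per gene. Genes with a mean of at least 0.5 FPKM were tested on log2(FPKM + 0.5), which understates changes of low values, with limma 3.58.1 in R 4.3.3 (eBayes with trend, no block, two-sided; differences are subline minus parent). P-values were Benjamini-Hochberg adjusted over all 6444 genes, threshold 0.05. Isoforms were fitted likewise. In a check on simulated data the test missed most changes of 1 and 2 log2 units, so a member not called may still differ. Near 0 means under 0.05 FPKM.

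The members and lists were chosen with earlier results of these data known. Named were the 8 most abundant members, the 6 of largest difference and the 4 of smallest p per direction, the 4 of smallest difference with a mean of at least 2 FPKM, 3 on each side of the threshold, the 3 with the widest gap between libraries of a line, and isoforms of at least 10% in 5 abundant members and 5 whose leading isoform differed. Further named lncRNAs were chosen after their values were seen. They are lnc-ZNF792-4, lnc-ZNF131-1, lnc-ZNF599-5, lnc-ZNF599-10, those named for the ZNF gene of a named member, and those of other lists. Neighbours were placed with GENCODE release 44 on GRCh37 (hg19), and promoters are RefSeq's on GRCh38. Finger motifs of the neighbours' proteins were not analysed here. Alternatives were quantile normalization, pseudocounts of 1 and 0.1, centring, a minimum of 1 FPKM, no filter, no trend, a replicate block, isoform rows and leaving out each library. Tables used pandas 2.3.3 and numpy 2.4.6 in Python 3.11.15, and plots matplotlib 3.10.9.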

Additional observations from a re-analysis of the deposited data

How the results depend on the processing

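The count of 0 called members, as genes or isoforms, was the same in every alternative run. The 4 calls among all genes became 0 with a pseudocount of 1, no filter, no trend, isoform rows, the replicate block or any library left out, and 2 with quantile normalization. With a minimum of 1 FPKM fewer genes were tested, and 107 members remained. Both subline libraries lay above both parental ones for 30 of them and below for 15. Over all genes, the shares above were 28%, 29.3% and 29.1% at means of 1 to 2, 2 to 5 and 5 FPKM or more. The shares below were 20.6%, 21.5% and 28.6%. Unadjusted p-values under 0.05 numbered 10 members (5.85%, all genes 10.5%) without subline library 2, 13 (7.6%, all genes 8.75%) without subline library 1 and 14 (8.19%, all genes 11.7%) without parental library 2, against 22 (12.9%, all genes 15.2%). A fit without 1 library takes the lone library of its line to vary like the other line.

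The members' median difference of 0.24 was 0.32 with a pseudocount of 0.1, 0.16 with 1, 0.075 with quantile normalization, 0.15 with centring and 0.15 to 0.30 without single libraries. For chromosome 19 neighbours it was 0.36, 0.23, 0.14 and 0.22 in the same order, 0.24 with a minimum of 1 FPKM and 0.22 to 0.29 without single libraries. For other chromosomes it was 0.28, 0.13, 0.046 and 0.12, 0.14 with a minimum of 1 FPKM, 0.14 with isoform rows and 0.099 to 0.38 without single libraries. The median of all genes was 0.12, 0.069, -0.027 and 0.0047 in the same order, and 0.071 to 0.090 without single libraries. Without parental library 2, other chromosomes gave 0.099 against 0.086 for all genes, nearly the same. Without subline library 2, the members gave 0.15 against 0.090. The members' median stayed above that of all genes in each of these runs. Of 31 named members, 19 kept their sign in all alternatives run, lnc-ZNF564-1 went to 0 without parental library 2, and 11, none of them called, changed sign. With quantile normalization lnc-ZNF213-3 was 0.041, lnc-ZNF131-2 -0.080, lnc-ZNF717-4 -0.027 and lnc-ZNF77-2 -0.051, and with centring the last 3 were -0.075, -0.066 and -0.045. As an isoform row lnc-ZNF8-2 was 0.024. Without single libraries the ranges were -0.60 to 0.0080 (lnc-ZNF213-3), -0.043 to 0.49 (lnc-ZNF713-3), -0.011 to 0.58 (lnc-ZNF697-2), -0.29 to 0.27 (lnc-ZNF8-2), -0.20 to 0.22 (lnc-ZNF131-2), -0.098 to 0.14 (lnc-ZNF717-4), -0.11 to 0.19 (lnc-ZNF77-2), -0.24 to 0.046 (lnc-ZNF394-2), -0.51 to 0.99 (lnc-ZNF716-4), -0.012 to 2.76 (lnc-ZNF30-3) and -2.51 to 0.68 (lnc-ZNF503-10). For these and the moved medians, the cause was not tested.

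Replicate numbers were not taken to pair the libraries, since there are 2 pairs and the labels name no shared batch: the gap between libraries 1 and 2 of one line correlated with that of the other at 0.0777 over all genes and 0.119 over the members. With the replicate number as a block, 0 members and 0 of all genes were called, and 16 members (9.36%, all genes 13.8%) had an unadjusted p under 0.05.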
